A study of Homo sapiens with 8 samples.

Results

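H3K79me2, dimethylation of lysine 79 in the core of histone H3, was compared by ChIP-seq between MOLM-13 cells carrying shLAMP5-AS1, a hairpin named for a long noncoding RNA antisense to LAMP5, and MOLM-13 cells carrying shNC, the control hairpin. All 8746 regions of the deposited H3K79me2 table were taken, of 22412 regions in the 2 tables of the series; the other table, of H3K79me3, holds 13666. MOLM-13 is an established human cell line from an acute myeloid leukemia, with a fusion of the MLL gene. Each condition had 1 ChIP library and 1 input library for this mark, so the table rests on 4 libraries of the 8 in the series and no difference has a replicate check or a p-value. Some label fields differ from the titles: the transfection field of the shNC libraries reads control siRNA, the treatment field names knockdown of other genes, and culture from xenografts is described under growth. Groups follow the titles, and no label says whether the hairpin line was a clone or a pool. The table lists only regions that the authors called different, with no read counts, so the depth of the libraries is unknown, no level of any cell type marker or of LAMP5-AS1 can be read from it, and the identity of the cells was not checked.

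Each row gives a short region, a name that begins with pos_peak or neg_peak, a signed score with no stated unit, and the authors' annotation. The sign of the score matched the name in every row, with 0 exceptions. Neither the table nor the labels say which condition a positive score favours, so the words positive and negative below repeat the region names and state no gain or loss in shLAMP5-AS1 cells. Positions are given as deposited. Among 7284 intron regions whose 1 gene was found in RefSeq, 99.96% lay on the chromosome of that gene but 16.3% inside its GRCh38 bounds, so the table's build is not GRCh38; hg19 is the other build that the submitters' notes name.

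H3K79 methylation is written by DOT1L, an enzyme that works without the SET domain of other lysine methyltransferases and binds partners of the transcription elongation machinery. The mark lies over transcribed genes, mostly in the early part of the gene body, and MLL fusion proteins recruit DOT1L to their target genes. A gene with a broad domain of the mark can hold many short regions, so regions of a gene are not counted here as separate sites of action.

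The promoters below belong to 4 protein-coding genes with large promoter scores, 2 of each sign, chosen after the values were seen among genes with 2 promoter regions of a single sign on chromosomes used for sequence here; they show how the base composition of such promoters can differ. They are RefSeq sequences of GRCh38.p14, from 250 bases before the start of the gene to 50 after it, 5′ to 3′ on the strand of the gene, with every CG in capitals. RSRC1, a gene for a splicing-related protein, is shown at chr3:158109839-158110138 on the + strand, and SERTAD3, a gene for a transcriptional coregulator, at chr19:40444286-40444585 on the - strand. SLC20A1, which encodes a sodium-dependent phosphate transporter, is shown at chr2:112645689-112645988 on the + strand, and CLEC11A, the gene of a secreted growth factor of hematopoietic cells, at chr19:50723114-50723413 on the + strand.
RSRC1: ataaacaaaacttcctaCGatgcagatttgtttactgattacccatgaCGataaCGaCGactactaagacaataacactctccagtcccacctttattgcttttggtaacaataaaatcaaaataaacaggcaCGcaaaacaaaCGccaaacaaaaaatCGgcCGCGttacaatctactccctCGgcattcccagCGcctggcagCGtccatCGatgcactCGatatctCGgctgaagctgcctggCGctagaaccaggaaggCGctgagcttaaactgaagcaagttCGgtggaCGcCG
SERTAD3: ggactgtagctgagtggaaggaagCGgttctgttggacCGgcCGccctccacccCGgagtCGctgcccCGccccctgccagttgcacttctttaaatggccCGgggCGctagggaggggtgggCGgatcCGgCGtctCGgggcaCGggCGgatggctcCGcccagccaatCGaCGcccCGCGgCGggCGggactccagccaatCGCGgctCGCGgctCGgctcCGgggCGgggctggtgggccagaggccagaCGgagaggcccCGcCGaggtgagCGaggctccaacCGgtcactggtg
SLC20A1: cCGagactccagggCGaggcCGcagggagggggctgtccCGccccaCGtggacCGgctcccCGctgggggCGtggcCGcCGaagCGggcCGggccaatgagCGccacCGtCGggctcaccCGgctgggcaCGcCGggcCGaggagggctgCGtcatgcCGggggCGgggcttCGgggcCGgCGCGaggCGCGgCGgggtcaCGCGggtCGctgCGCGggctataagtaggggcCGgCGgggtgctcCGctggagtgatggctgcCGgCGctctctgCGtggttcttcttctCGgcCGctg
CLEC11A: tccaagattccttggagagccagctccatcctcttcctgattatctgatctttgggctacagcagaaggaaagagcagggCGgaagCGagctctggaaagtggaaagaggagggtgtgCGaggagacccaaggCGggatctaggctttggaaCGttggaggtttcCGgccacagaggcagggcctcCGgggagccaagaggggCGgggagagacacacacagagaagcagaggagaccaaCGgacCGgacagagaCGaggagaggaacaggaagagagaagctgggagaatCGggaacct

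The RSRC1 window held 20 CG, a number that 41.2% of all RefSeq promoters of this length reach, and the gene's promoter regions in the authors' deposited table scored 22.98 and 16.2. SERTAD3 held 33 CG, reached by 17.2% of promoters, and the authors' deposited table scored its regions 8.86 and 21.0. SLC20A1 held 42, reached by 5.85% of promoters, with -13.7 and -22.8 in the authors' deposited table. CLEC11A held 12, reached by 53.1% of promoters, with -13.7 and -18.8 in the authors' deposited table. Within this quartet, the pair with positive and the pair with negative regions overlapped in their number of CG. These windows are on GRCh38 and the regions are not, so whether a region covers the printed bases was not determined.

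Positive regions were the smaller part of the table. Of the 8746 regions, 3911 were positive (44.7%, 95% Wilson interval 43.7 to 45.8) and 4835 were negative; intervals here cover counting error only, treat regions as independent, and are too narrow where regions lie close together. Regions were 67 to 552 bp wide, with a median of 91 bp for positive and 85 bp for negative ones. The median score size was 10.2 for each sign, and the extremes of the authors' deposited table were 31.5 and -29.1, so the signs were alike in the size of their scores. Introns held 85.9% of the regions and promoters 5.55%, while 5.65% were assigned to no promoter, exon, intron or UTR. The positive share was 46.0% at promoters (41.6 to 50.4), 44.6% in introns (43.5 to 45.7) and 36.7% in CpG islands (29.4 to 44.8). In CpG shores, the flanks of islands, 542 of 1052 regions were positive (51.5%, 48.5 to 54.5), against 43.9% in regions that touched neither island nor shore.

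Regions lay on every chromosome, and the balance of signs was not the same on each. Chromosome 1 held 781 regions, chromosome 2 held 742 and chromosome 8 held 567. Per 100 RefSeq protein-coding genes, chromosome 13 was richest with 86.4 regions, followed by chromosome 8 with 79.3 and chromosome 18 with 76.7. Chromosome X, with 15.7, and the gene-dense chromosome 19, with 18.7, were poorest on that scale. The scale divides by few genes on chromosomes 13 (338) and 18 (270), and DACH1 alone held 30 of the 292 regions of chromosome 13. Gene length and chromosome copy number in these cells were not taken into account. Just 3 autosomes had more positive than negative regions, against 44.7% positive in the whole table. Chromosome 18 was 61.4% positive (127 of 207, 54.6 to 67.7), chromosome 5 was 60.8% positive (320 of 526, 56.6 to 64.9) and chromosome 2 was 53.8% positive (399 of 742, 50.2 to 57.3). Chromosomes 6 and 9 had the lowest positive shares, 34.4% (190 of 552, 30.6 to 38.5) and 36.3% (127 of 350, 31.4 to 41.4).

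How far single genes set these shares differed between chromosomes; the shares without the richest genes were added after the values were seen. On chromosome 2 the share was 46.7% without its 5 richest genes, and 45.8% when regions of a single sign within 5 kb were merged. On chromosome 5, NIPBL had 16 positive regions and 1 negative region, PDE4D had 16 negative ones and EFNA5 had 7 positive and 10 negative ones, and the share was 61.7% without the 5 richest genes. By genes, chromosome 5 had 85 whose regions were all positive (positive-only), 48 whose regions were all negative (negative-only) and 63 mixed ones, whereas in the whole table negative-only genes were the more frequent. Chromosome 18 was 57.3% positive without its 5 richest genes, which include BCL2, and held 28 positive-only and 20 negative-only genes. On chromosome 6, 35 negative regions lay in RUNX2 and 20 in DOPEY1, and the positive share was 39.5% without the 5 richest genes. On chromosome 9, GNAQ held 36 negative regions and the share was 39.5% without the 5 richest genes. When regions of a single sign within 5 kb were merged, chromosomes 5 and 18 stayed at 59.6% and 59.5% positive, while chromosome 6 moved to 39.5% and chromosome 9 to 41.3%.

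**Figure D1:**
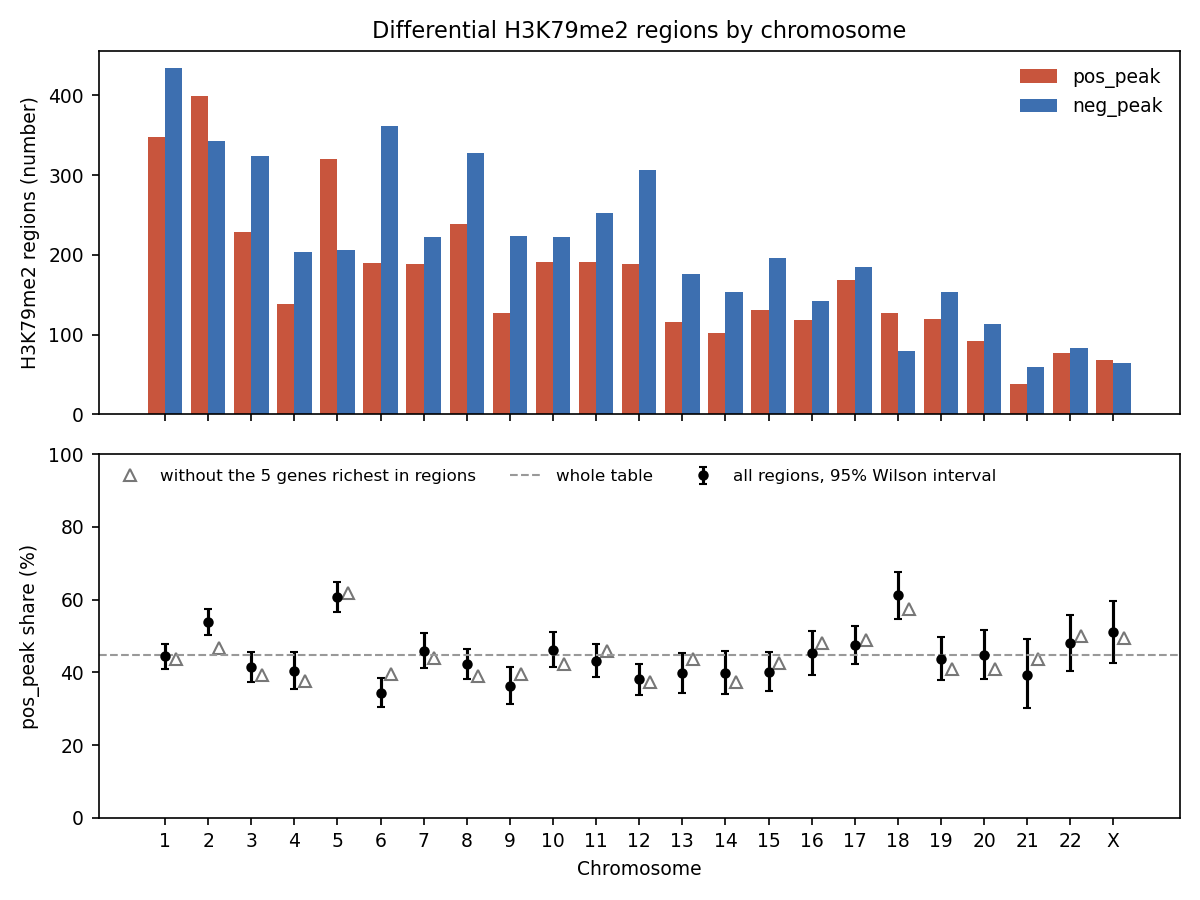
Number of pos_peak and neg_peak H3K79me2 regions on chromosomes 1 to 22 and X (top) and the pos_peak share in percent (bottom), with 95% Wilson intervals as bars, open triangles for the share without the 5 genes richest in regions, and a dashed line at 44.7% for the whole table. Chromosomes 5 and 18 lie farthest above the line with and without those genes. Chromosomes 2, 16, 17, 22 and X are also above it both ways, by less, and chromosome 2 drops to 46.7% without those genes. On the remaining chromosome, 11 regions are not drawn.

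On a scale of 5 Mb, 175 windows held at least 20 regions. In 16 of them at most 20% of the regions were positive, in 8 at least 80% were, and 151 lay between. The most one-sided window, chromosome 6 from 45 to 50 Mb, had 35 regions, all negative and all in RUNX2, one of them also in its neighbour SUPT3H. On chromosome 9 from 80 to 85 Mb, 43 of 44 regions were negative, 36 of them in GNAQ. The most positive window was chromosome 18 from 60 to 65 Mb, with 32 of 33 regions positive. It spans BCL2, the inhibitor of apoptosis, with 17 positive regions and 1 negative region, and PHLPP1, a phosphatase of the kinase AKT, with 12 positive regions. Chromosome 5 from 45 to 50 Mb had 20 positive regions of 21, and only 1 of these regions, in PARP8, was assigned to a gene. The windows around RUNX2, GNAQ, and BCL2 with PHLPP1 thus hold mostly regions of 1 or 2 genes, and the last window does not.

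Regions near each other tended to carry the same sign. Of 590 neighbouring pairs less than 0.5 kb apart, 91.4% had the same sign (88.8 to 93.4). The share was 74.3% (69.4 to 78.7) at 0.5 to 1 kb, 68.2% (65.3 to 71.0) at 2 to 5 kb and 62.6% (60.5 to 64.7) at 5 to 20 kb. It was 55.7% (53.1 to 58.4) at 20 to 100 kb, 49.4% (46.8 to 51.9) at 100 to 500 kb and 51.6% (48.9 to 54.3) beyond 500 kb. With signs near balance in the table, unrelated signs would match in close to 50% of pairs. The intervals lay above 50% up to the class of 20 to 100 kb and included 50% in the classes beyond. The 100 kb limit is thus the edge of a class and not a measured range. Within 5 kb, 1868 of 2485 pairs matched (75.2%). H3K79me2 regions were more scattered than those of H3K79me3, with a median gap of 17.4 kb to the next region against 3.30 kb.

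**Figure D2:**
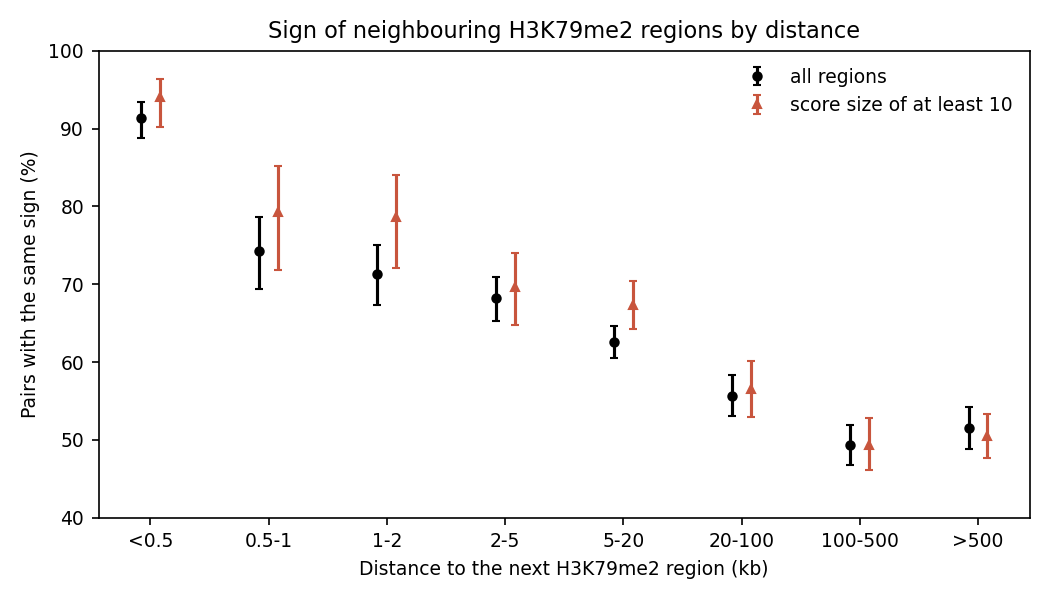
Share of neighbouring H3K79me2 regions with the same sign, in percent, by the distance between them in kb; bars are 95% Wilson intervals, and the sets are all regions and regions with a score size of at least 10. In each set the share falls from over 90% below 0.5 kb to about 50% beyond 100 kb; the vertical axis starts at 40%.

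Successive regions at most 5 kb apart formed 471 runs of at least 3 regions, which held 1939 regions, 22.2% of the table. Of these runs 105 were all positive, 172 all negative and 194 mixed. The longer the run, the more often it had a single sign. Of 382 runs of 3 or 4 regions 208 had a single sign, as had 42 of 62 runs of 5 or 6 regions and all 27 runs of 7 or more regions. The 27 long runs comprised 8 positive and 19 negative ones. In the H3K79me3 table, where 2.47% of regions are positive, 59.1% of regions lay in runs and 17 of 336 runs of at least 7 regions were mixed.

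Long positive runs lay in few genes. DYNC1I1, an intermediate chain of cytoplasmic dynein, had 17 positive regions, all in a single run on chromosome 7 (95706658 to 95721620), and no other region of either mark. On chromosome 3, a run of 13 positive regions (157816838 to 157827584) covered SHOX2, a homeobox gene, with 11 regions, and the promoter of its neighbour RSRC1, which had 21 positive regions in all. MIR181A1HG, the host transcript of miR-181a and miR-181b, had a run of 10 (chromosome 1, 198879498 to 198890803) among its 15 positive regions, and no H3K79me3 region. The scores of these 15 in the authors' deposited table ran from 6.01 to 25.6. The genes for the mature RNAs themselves had no region of their own. The mature RNAs are shown to identify what this host transcript carries; capitals mark the seed, bases 2 to 8, and RefSeq places them on the - strand of chromosome 1 in GRCh38.p14.
hsa-miR-181a-5p: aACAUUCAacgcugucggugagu
hsa-miR-181b-5p: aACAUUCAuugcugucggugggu
hsa-miR-181a-3p: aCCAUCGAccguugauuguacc
hsa-miR-181b-3p: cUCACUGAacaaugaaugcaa

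The 5p forms share the seed ACAUUCA, while the 3p forms have CCAUCGA and UCACUGA. Other long positive runs lay in GAB2 and POLK, with 7 regions each, and in 2 stretches assigned to no gene, on chromosome 2 with 9 regions (89159209 to 89165084) and on chromosome 20 with 7 (11427716 to 11435733).

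Long negative runs were spread over more genes. LIN7A, a scaffold protein of cell junctions, had a run of 20 regions in 22.1 kb on chromosome 12 (81304299 to 81326390). Its 32 regions were without exception negative, with score sizes from 7.53 to 23.9 in the authors' deposited table. A run of 20 on chromosome 6 (83770149 to 83804616) covered DOPEY1, now named DOP1A, a gene of endosomal traffic, and reached into its neighbour UBE3D. C1orf186, now RHEX, known as a regulator of erythroid cell expansion, had 16 negative regions in 13.1 kb on chromosome 1 (206244068 to 206257167). IRS2, an adaptor of the insulin receptor, had a run of 15 on chromosome 13 counting 1 region beside the gene, and AIG1 had 15 of its 18 regions in 18.0 kb on chromosome 6. PDE4D, a cAMP phosphodiesterase, had 13 of its 16 regions in 14.6 kb of a gene over which its regions span 1210 kb. DRAM1, a lysosomal regulator of autophagy, had a run of 12, PLEKHF2 one of 11 and NAV3 one of 10. RUNX2, the runt-domain factor of bone, had separate runs of 10 and 9. Shorter runs of 7 to 9 negative regions lay in SMYD3, GNAQ, ZNF438, SWAP70, ZBTB16 and DMXL2, and a run of 9 on chromosome 1 (149325344 to 149333783) was assigned to no gene. Genes in these runs that the naming rule does not cover, such as POLK, DRAM1, PLEKHF2 and NAV3, were chosen after their values were seen.

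**Figure D3:**
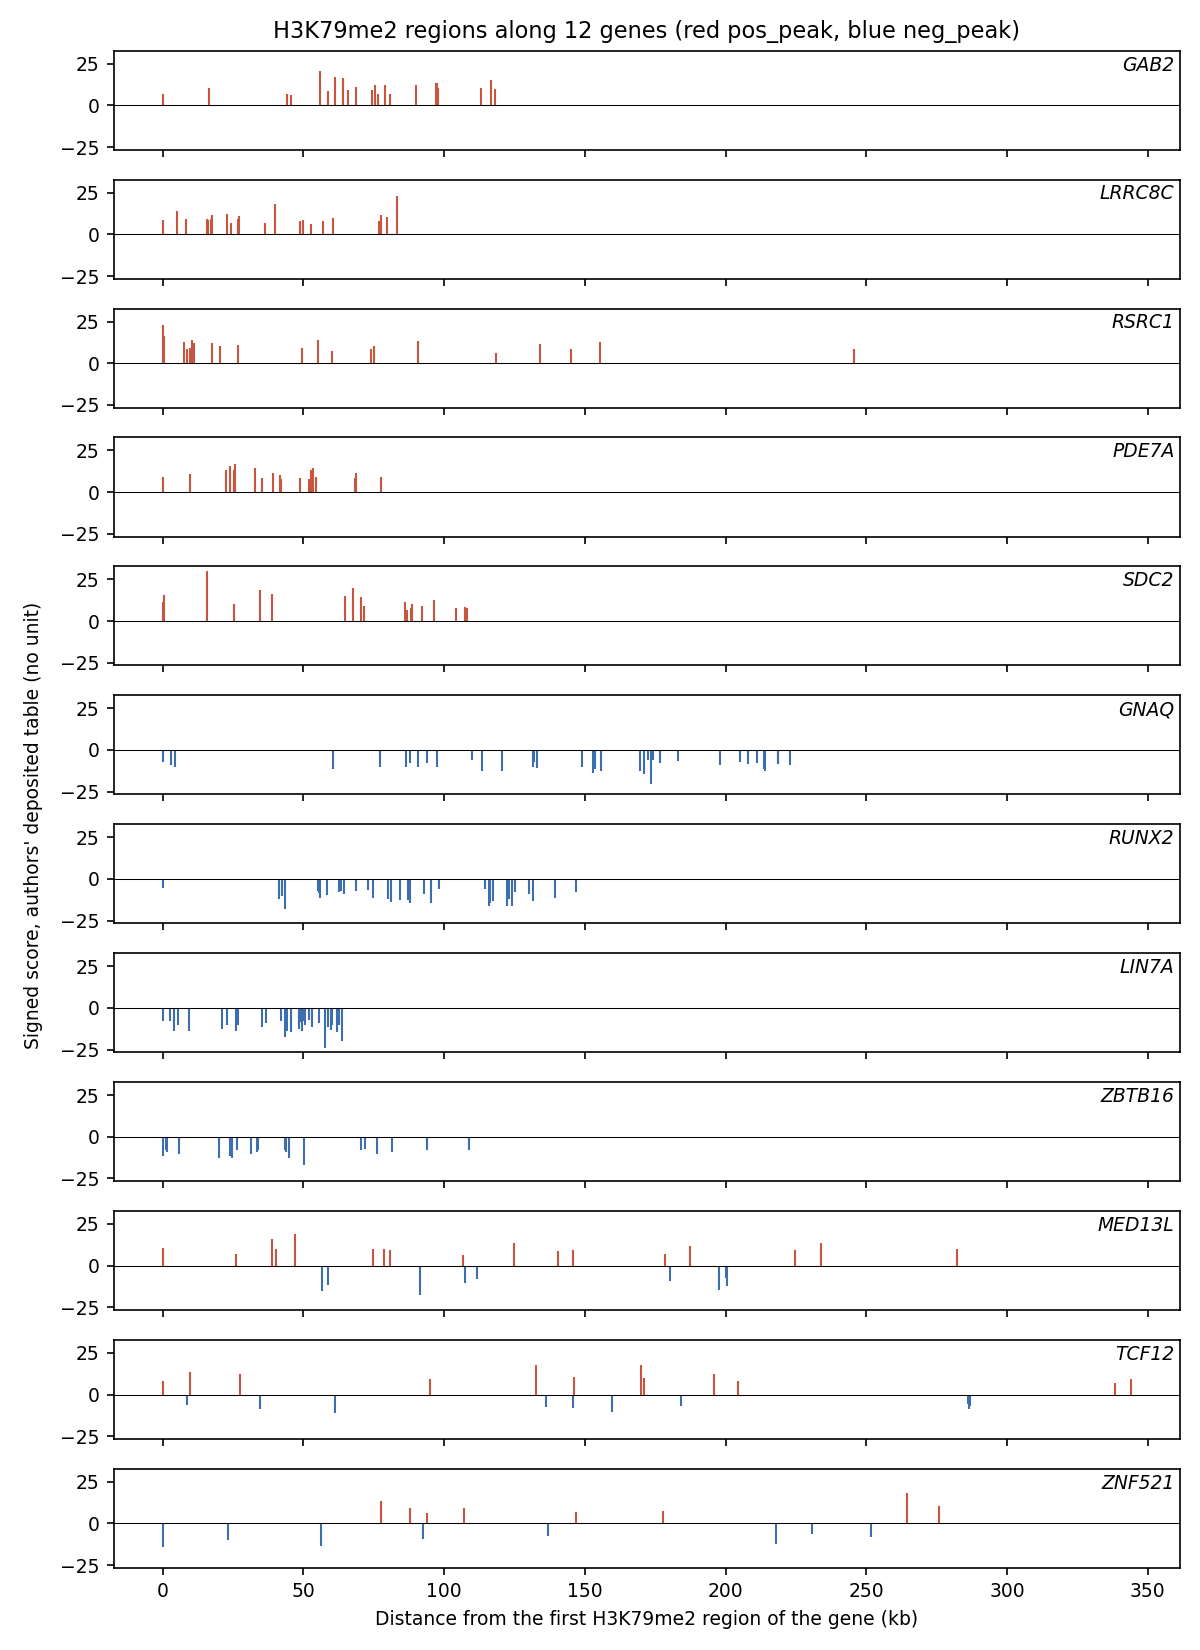
Signed score of each H3K79me2 region (vertical axis, authors' deposited score, no unit) against its distance in kb from the first region of the gene, in order of coordinate and not of transcription, for 12 genes. GAB2, LRRC8C, RSRC1, PDE7A and SDC2 have positive regions only, GNAQ, RUNX2, LIN7A and ZBTB16 negative regions only, and in MED13L, TCF12 and ZNF521 both signs alternate along the gene.

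Counted by gene, 3665 genes had a region in a promoter, exon, intron or UTR. Of these, 1183 were positive-only (32.3%), 1521 negative-only (41.5%) and 961 mixed. A single region was all that 1930 genes had (52.7%). At least 10 regions were found in 90 genes, which together held 1441 regions, 16.5% of the table. Of these 90, 12 were positive-only, 19 negative-only and 59 mixed. For H3K79me3 the matching counts were 251 genes, with 0 positive only, 213 negative only and 38 both.

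Among positive-only genes, those with many regions included GAB2 with 23, LRRC8C with 22, RSRC1 and PDE7A with 21 each, SDC2 with 19, DYNC1I1 with 17, MIR181A1HG with 15, PHLPP1 with 12 and NCALD with 11, a number that SHOX2 and FAM107B also had. GAB2 is an adaptor that links cytokine receptors to PI3 kinase and SHP2, and its scores in the authors' deposited table ran from 6.41 to 20.6 over 118 kb of chromosome 11. LRRC8C, a subunit of volume-regulated anion channels, had scores from 5.95 to 22.8 in the authors' deposited table, the largest in the 3′ UTR at 90183230 to 90183304 of chromosome 1. PDE7A, which breaks down cAMP, had 3 regions at promoters, more than any other gene. SDC2, a cell-surface proteoglycan, ranged from 6.68 to 30.1 in the authors' deposited table. NCALD, a neuronal calcium sensor, had 11 regions in 40.5 kb.

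Among negative-only genes GNAQ led with 36 regions, before RUNX2 with 35, LIN7A with 32, ZBTB16 with 22, DMXL2 with 21, DOPEY1 with 20, SWAP70 and AIG1 with 18 each, and SMYD3 and PDE4D with 16 each, as had C1orf186. GNAQ, the alpha subunit of the G protein Gq, had score sizes from 5.95 to 20.1 in the authors' deposited table, spread over 223 kb of chromosome 9 with a median spacing of 3.08 kb. ZBTB16, the progenitor transcription factor also called PLZF, had score sizes from 5.82 to 16.8 over 109 kb of chromosome 11. SWAP70, an exchange factor that acts on Rac, had its largest score, -19.4 in the authors' deposited table, at 9687099 to 9687210 of chromosome 11. SMYD3, a lysine methyltransferase, had 9 of its 16 regions in a single run of 6.09 kb. Near these came genes with 1 or 2 regions of the other sign: DACH1 had 1 positive and 29 negative regions, CCDC26, a noncoding gene, had 1 positive and 20 negative, and FNDC3B had 2 positive and 21 negative.

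**Figure D4:**
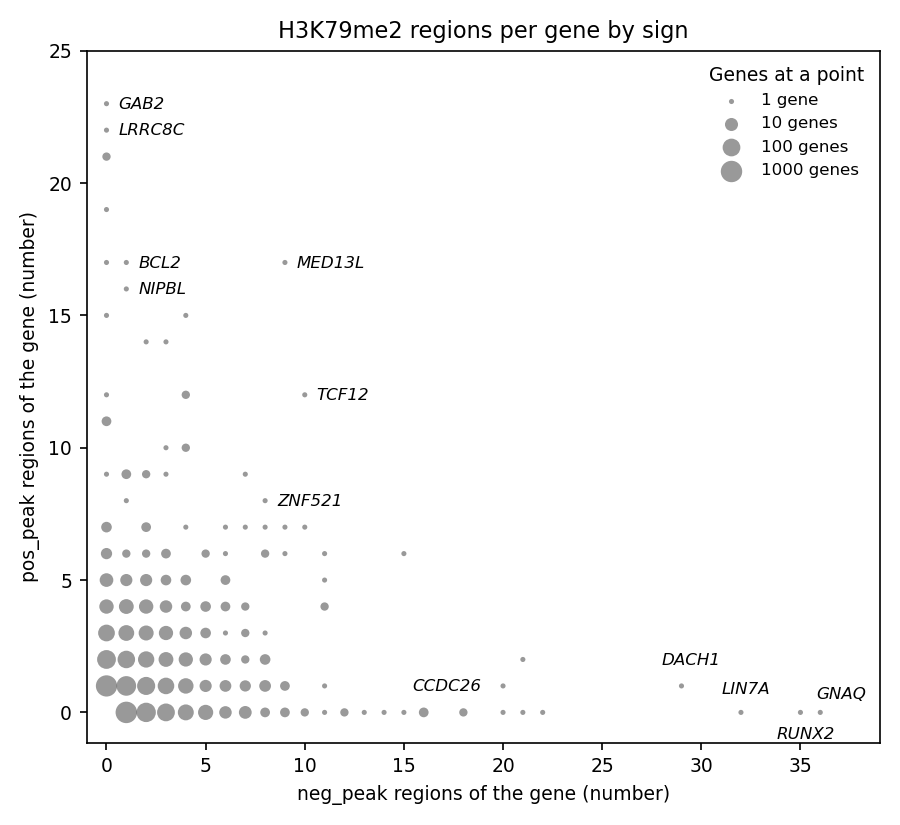
Number of pos_peak regions (vertical axis) against neg_peak regions (horizontal axis) for each gene with an H3K79me2 region; the area of a point grows with the logarithm of the number of genes there. Genes such as GAB2, LRRC8C, GNAQ and RUNX2 lie on the axes and MED13L and TCF12 between them; the vertical axis ends at 25, so a gene beyond it is not drawn.

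Along genes with both signs, the number of changes from one sign to the other ran from 1 to 12 in the 59 mixed genes with at least 10 regions, with a median of 4. TCF12, a basic helix-loop-helix factor, had 12 positive and 10 negative regions over 344 kb, and the sign changed 12 times along the gene, the most in any of them. MED13L, a subunit of the Mediator kinase module, had 17 positive and 9 negative regions with 10 changes of sign. ZNF521 had 8 of each sign with 7 changes, ARID1B, a subunit of the BAF remodelling complex, 9 positive and 7 negative with 7 changes, and EFNA5, an ephrin ligand, 7 positive and 10 negative with 8 changes. JMJD1C had 7 positive and 8 negative regions with 8 changes, CHST11 6 and 15 with 7 changes, and FAF1 6 and 11 with 7 changes. The ETS factor gene ETV6 had 7 of each sign with 5 changes and NCAM2 7 positive and 9 negative with 5. The 4 genes with 1 change, chosen after their values were seen, were SSH2, which divided into 4 positive and 6 negative regions, and CCDC26, SNTB1 and ZNRF2, in each of which the rarer sign had 1 region, at an end of the row. In 11 of the 59 the rarer sign had 1 region, and in 21 it had at least 5. Spacing was wide in most of these genes, with a median of 13.3 kb in ZNF521 and 9.55 kb in TCF12, against 1.39 kb in LIN7A.

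The H3K79me3 regions of the same genes were compared, since the tables come from separate ChIP and input libraries. Among positive-only genes, LRRC8C had 3 positive and 3 negative H3K79me3 regions, PDE7A had 3 and 7, and GAB2 had 1 and 3. RSRC1 and SDC2 each had 1 positive and 4 negative ones, NCALD had 1 positive one, and PHLPP1 had 1 negative one. FAM107B had 14, all of them negative. DYNC1I1, MIR181A1HG and SHOX2 had none. The 19 negative-only genes with at least 10 H3K79me2 regions had 193 H3K79me3 regions, 1 of them positive (0.518%), in GNAQ. The 59 mixed genes had 1386, of which 13 were positive (0.938%). Both totals are sums over gene symbols, so a region assigned to more than 1 symbol counts for each. AKAP2 and PALM2-AKAP2, for example, stand as separate genes with the same H3K79me2 regions. Over all genes, H3K79me3 regions were 3.62% positive (56 of 1546, 2.80 to 4.67) in genes with positive H3K79me2 regions only. The share was 1.14% (33 of 2905, 0.810 to 1.59) in negative-only genes and 1.19% (63 of 5275, 0.935 to 1.53) in mixed genes. In each class most H3K79me3 regions were negative. TCF12 had 29 and MED13L 46 H3K79me3 regions, all negative. As positions, 158 H3K79me2 regions shared at least 1 bp with an H3K79me3 region (1.81%, against 1.16% of the H3K79me3 regions), 58 of them positive and 100 negative (36.7% positive).

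Genes were grouped into 37 families by symbol, and 28 of these had at least 20 regions. RefSeq lists 20056 protein-coding genes, of which 3359 had a region (16.7%). The share with a region differed widely between families: 0 of 392 olfactory receptor genes, 0 of 55 keratin genes and 1 of 44 collagen genes had a region. Regions were found in 8 of 12 genes of cohesin and its loaders and 14 of 29 chromatin remodeller genes. The same held for 12 of 23 genes grouped by symbol as histone demethylases. Between these lay 20 of 47 splicing factor genes of the SRSF, HNRNP and SF3 groups, 21 of 51 USP deubiquitinase genes and 17 of 80 ribosomal protein genes.

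Among transcription factors, ZNF zinc finger genes had 68 positive and 71 negative regions in 67 of 509 members (48.9% positive, 40.8 to 57.1, beside 44.7% in the table). By gene, 26 were positive only, 21 negative only and 20 mixed, beside 32.3% positive-only and 41.5% negative-only among all genes with a region. ZNF438 had 1 positive and 8 negative regions and ZNF516 7 and 2. ZBTB genes were 29.7% positive (11 of 37), but 22 of the 26 negative regions were those of ZBTB16, and the other 9 genes had 11 positive regions of 15. RUNX genes were 4.44% positive (2 of 45), with 35 negative regions in RUNX2 and 2 positive and 8 negative in RUNX1, the factor of blood cell development. ETS genes had 15 positive and 17 negative regions, FOX genes 20 and 21, with FOXP1 at 5 and 6, FOXO3 at 2 and 7 and FOXJ3 at 5 and 1. The E-protein and TCF/LEF group had 12 positive and 11 negative regions, all but 1 of them in TCF12. HOX genes had 7 regions in 4 of 39 members, of which HOXA13 had 3, all positive. HOXA6 had 1 of each sign, and HOXA5 and HOXA11 each had 1 negative promoter region, scored -15.5 and -10.1 in the authors' deposited table.

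Histone methyltransferase genes had 30 positive regions of 75, and were 50.8% positive without SMYD3; KMT2C had 4 positive and 5 negative regions and ASH1L 6 and 3. The histone demethylase group, formed by symbol, was 41.8% positive (23 of 55, 29.7 to 55.0), with KDM6A at 1 positive and 4 negative regions. JARID2, counted there by its symbol though it lacks demethylase activity, had 2 positive and 8 negative regions. Chromatin remodeller genes were 51.8% positive (29 of 56), CHD7 having 8 positive regions and 1 negative region, and CHD1 having 4 positive ones. Mediator genes were 60.7% positive (34 of 56, 47.6 to 72.4), and 56.7% without MED13L; MED13 had 6 positive and 3 negative regions and CDK19, a kinase of the same module, 3 positive ones. Cohesin and loader genes were 65.0% positive (26 of 40), but 43.5% without NIPBL, the loader, whose 17 regions included 16 positive ones. STAG2 had 4 positive regions, while its paralog STAG1 had 1 positive and 6 negative.

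In 4 families of signalling, cell death and transport, leaving out a single member moved the share outside its interval. Heterotrimeric G protein genes were 18.0% positive (11 of 61, 10.4 to 29.5) and 44.0% without GNAQ, and GNA13, another alpha subunit, had 6 positive regions. Phosphodiesterase genes were 54.0% positive (27 of 50) and 20.7% without PDE7A, since PDE4D was all negative and PDE3B had 6 of each sign. BCL2 family genes were 62.1% positive (18 of 29) and 9.09% without BCL2, with BCL2L13 at 1 positive and 6 negative regions, and BID and BAK1 at negative regions only. Dynein genes were 90.9% positive (20 of 22), 17 of the regions being those of DYNC1I1, and 3 of the other 5 were positive. MAP kinase cascade genes were 30.8% positive (12 of 39, 18.6 to 46.4), an interval that includes the 44.7% of the whole table. Their share was 27.6% without MAP4K4, and MAPK14, the kinase p38 alpha, had 5 negative regions. Protein tyrosine and dual specificity phosphatase genes had 16 positive and 18 negative regions, and RAB genes 19 and 22. Cyclin and CDK genes were 36.6% positive (15 of 41), and their interval, 23.6 to 51.9, also includes the share of the table. CDK6 had 1 positive and 6 negative regions, CDK17 6 negative and CDK13 3 positive.

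RNF and TRIM ligase genes were 34.2% positive (26 of 76, 24.5 to 45.4), an interval that includes the 44.7% of the whole table. Of the 38 with a region, 8 were positive-only and 18 negative-only, RNF220 leading with 8 negative regions. Among all genes with a region, 32.3% were positive-only and 41.5% negative-only. USP genes had 27 positive and 36 negative regions; USP34 had 2 and 8, USP32 1 and 8, and USP12 4 and 2. DEAD and DEAH box helicase genes had 13 positive and 16 negative regions, splicing factor genes 17 and 21, and solute carrier genes 47 and 54, among them SLC23A2 with 6 positive regions and SLC22A15 with 5 negative ones. Ribosomal protein genes had 1 region each, 7 positive and 10 negative, whereas H3K79me3 gave 125 regions in this family. Kinesin genes had 7 positive and 5 negative regions, 4 of the positive ones in KIF5B. Core histone genes matched by symbol had 5 regions, 2 positive and 3 negative. HIST1H2BF, with 2 positive promoter regions, was not counted there as a member, and whether its regions are among the 5 was not determined. The 16 collagen regions were all in COL23A1, 12 of them positive. Regions annotated to microRNA genes were 37 positive and 35 negative, in 42 of 1913 members, and 41.8% positive without MIR548AN. The 17 annotated to MIR548AN lay in UBAC2 and spanned 74.8 kb, and the 5 of MIR3134 spanned 169 kb. These spans are far longer than a microRNA gene, so most of these regions cannot lie at the microRNA itself. The counts of this family are therefore of the authors' annotation and not of sites at microRNA genes. Small nucleolar RNA genes had 6 positive and 2 negative regions, LINC genes 8 and 11, and antisense RNA genes 27 and 43, where a region may belong to the gene on the other strand.

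**Figure D5:**
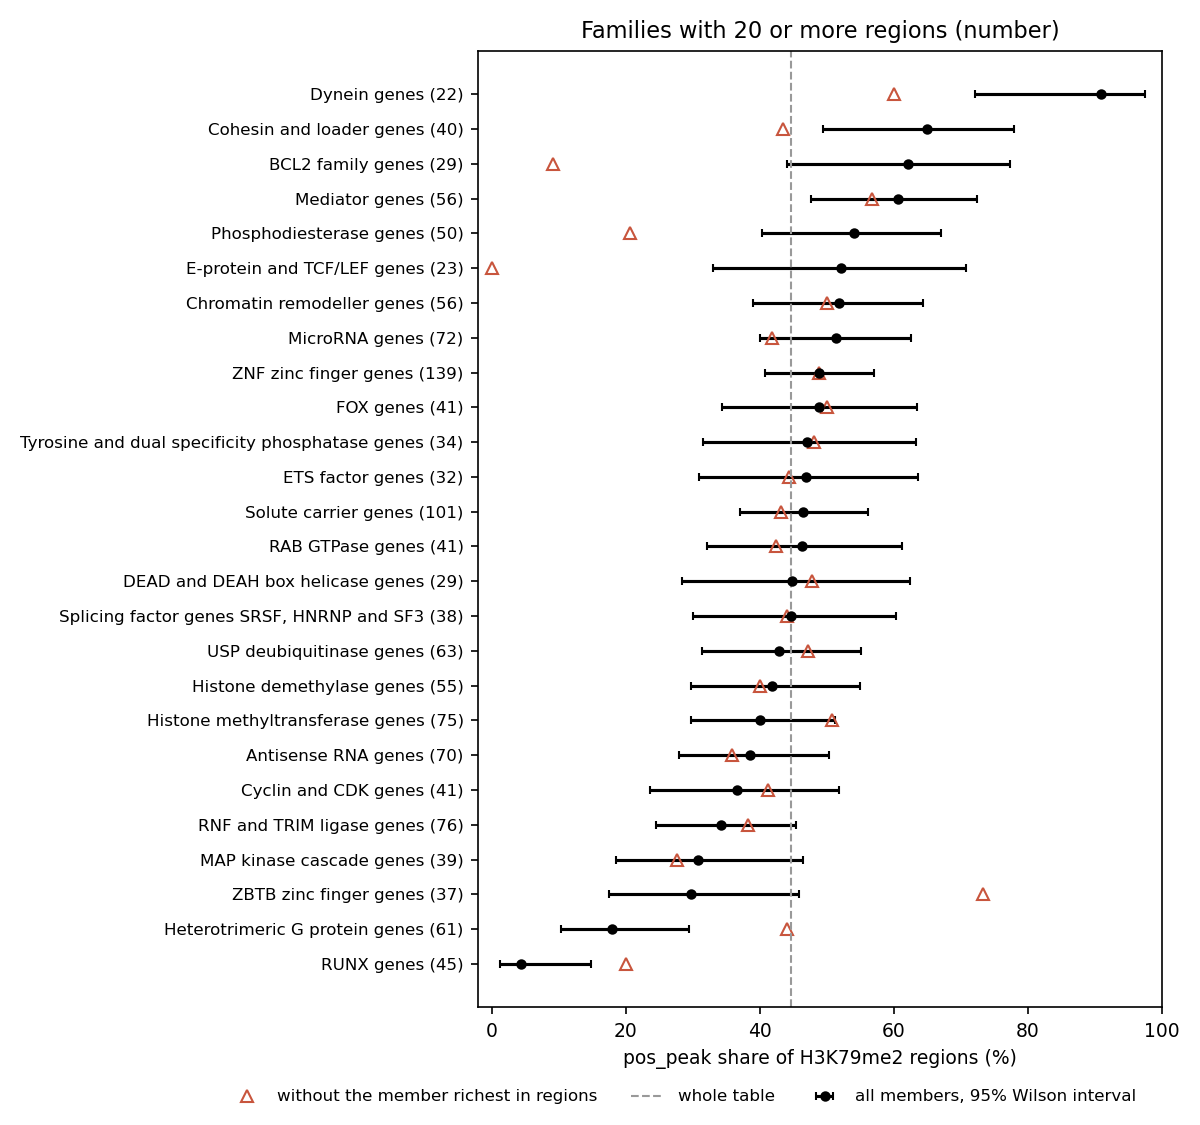
Share of pos_peak H3K79me2 regions in percent for families with at least 20 regions (number of regions in brackets), with 95% Wilson intervals; open triangles leave out the member with the most regions, and the dashed line is the whole table at 44.7%. The triangles move far from the points for BCL2, phosphodiesterase, ZBTB and G protein genes and little for ZNF, FOX and solute carrier genes.

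LAMP5 had 3 within 4.34 kb: in the authors' deposited table the positive ones scored 6.91 and 7.53 and the negative one -25.6. The antisense gene LAMP5-AS1 was assigned none. MEIS1, a HOX cofactor, had 8 regions over 86.7 kb, all negative, with score sizes from 7.74 to 21.5 in the authors' deposited table. No region was assigned to DOT1L, HOXA10 or HOXA9.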

How the data were processed

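H3K79me2 ChIP and input libraries of shLAMP5-AS1 and shNC MOLM-13 cells (1 each) lie behind the table; GEO titles gave the groups. Per the submitters' processing notes the authors' tools included Bowtie2, MACS2 2.1.1, bedtools and DESeq2, with no role or order given, and the step that made the table is not given in the sources used here. Values are signed scores per region, as deposited, with no unit per the file headers. With 1 library a group no test was run. Some genes and families that these rules cover are not reported here, though totals include them.

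Regions were counted by sign, chromosome, gene, symbol family and 5 Mb window; a region counts for every gene that the authors list for it as promoter, exon, intron or UTR. A run is at least 3 successive regions, each at most 5 kb from the one before. Shares carry 95% Wilson intervals. RefSeq (GRCh38.p14) gave names, gene types and printed sequences, matching 3601 of 3665 symbols (98.3%). Named genes were the 15 with the most regions, 10 per sign class, 10 with most regions of the rarer sign, 4 per family and DOT1L, MEIS1, HOXA9, HOXA10, LAMP5 and LAMP5-AS1. Members and families were chosen with earlier results of these data known. Functions were checked on simulated regions. Python 3.11.15, pandas 2.3.3, numpy 2.4.6, scipy 1.17.1 and matplotlib 3.10.9 were used.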

Additional observations from a re-analysis of the deposited data

How the results depend on the processing

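The share of positive regions stayed within its interval on autosomes only, at a score size of at least 10, with regions of one sign within 5 kb merged and with regions in promoters or genes only (44.6% to 45.4%). At a score size of at least 10, genes with both signs numbered 439, genes with at least 10 regions 29, runs 140 with 72.1% of a single sign, same-sign neighbours within 5 kb were 78.9%, and regions overlapping H3K79me3 were 47; fewer regions enter there. Shares without the richest genes, chosen after seeing the data, stand beside the chromosomes and families they change. Merging left 35 genes with at least 10 regions. A gap limit of 1 kb gave 117 runs, 85.5% of a single sign, and 85.2% same-sign neighbours; 20 kb gave 969 runs, 38.6% and 69.4%. Counting each gene once by its majority sign, 5 families in place of 8 were over 50% positive, and they were largely different families. Mediator and dynein genes stayed over 50%, while ZNF, ZBTB and USP genes passed it only by this count. BCL2 family, phosphodiesterase, cohesin and loader, chromatin remodeller and microRNA genes fell below 50%. The E-protein and TCF/LEF group fell to 50%. Which families were mostly positive thus depended on the counting unit, and the cause was not tested. A reciprocal overlap of 50% left 53 overlapping regions, and 2080 gene symbols were shared by both marks. Of 114 chromosome shares under these settings 6 left their interval, and of 168 family shares 13 did. Regions per 100 genes change the density and not the share of signs. No paired analysis was possible because each group has 1 library. With no read counts, depth sets an unknown limit on every region.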

Other observations

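Some groups of regions lay outside every annotated gene. Runs of at least 4 regions with no gene numbered 7, and 6 of them had a single sign. Beside those of chromosomes 1, 2 and 20 already given, chromosome 3 had 6 negative regions from 138507945 to 138523393, chromosome 5 had 4 positive ones from 49864496 to 49868636, and chromosome 8 had 4 negative ones from 58379866 to 58385694. The last run holds the largest negative score of the authors' deposited table, -29.1. On chromosome 12, 4 regions from 70864318 to 70869850 comprised 1 positive and 3 negative ones.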
